A study of Mus musculus with 28 samples.

Results

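The genes described here encode centrosomal proteins and the machinery that moves cargo in and out of the primary cilium. They were taken by symbol: every gene whose name is Cep, Ift or Bbs followed by a number. This rule was set with earlier results of these data known. The rule found 44 genes, 25 Cep, 11 Ift and 8 Bbs, among 14711 genes in any of the tables, and all 44 were in all 6 tables. RNA came from hippocampal CA1 of C57BL/6 mice aged 3 to 4 weeks. All mice carried 1 copy of an Rpl22 allele in which a floxed stop (LSL) precedes an HA-tagged ribosomal protein, and Cre recombinase releases the tag. In the CaMK2a line (CaMK2a-Cre/+; LSL-Rpl22-HA/+) Cre follows CaMK2a, an excitatory neuron gene, and in the PV line (PV-Cre/+; LSL-Rpl22-HA/+) it follows parvalbumin, a gene of a class of inhibitory interneurons. Mice received kainic acid (KA), a glutamate receptor agonist that provokes seizures, or PBS, and per the labels tissue was taken at 6 h. The tables' column names mark the PBS libraries as 0 h, which the labels do not, and the interval after PBS is therefore not settled. Anti-HA immunoprecipitation (IP) of tagged ribosomes with their transcripts was sequenced beside the lysate before IP (input). This gives 8 groups, with n = 3 in each CaMK2a group (4 mice pooled per library, 20 ng of RNA) and n = 4 in each PV group (9 to 10 mice pooled, 2.5 ng).

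The primary cilium is a single antenna-like organelle that most neurons carry, and it grows from the older of the cell's centrioles. Distal appendages dock that centriole at the membrane, and the transition zone forms a gate at the base of the cilium. Trains of the IFT-B complex carry cargo to the tip, IFT-A serves the return journey and the entry of membrane proteins, and the BBSome carries receptors out. Centrosomal proteins also build, duplicate and tether centrioles and anchor microtubules.

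Many ciliary promoters hold an X-box, the sequence that RFX transcription factors bind, and the sequences below are shown because some of these genes hold it and the choice by name did not use it. RefSeq promoter windows (GRCm38.p6, 250 bases before to 50 after a gene's start) matched 36 of the 44 genes by gene ID. Cep120, Cep192, Cep350, Cep76, Ift122, Ift80 and Ift81 were among those with no window. A strict form, GTTNCC, then 0 to 3 bases, then GGNAAC, occurred in 4 of 36 genes (11.1%) and in 0.936% of 27025 genes with windows of the same length. A looser form, GTNNCC, then 0 to 3 bases, then GGNNAC, which contains the strict one, occurred in 10 of 36 (27.8%) and in 4.38% of all. Each form reads the same on both strands. Shorter forms searched on both strands gave 30.6% against 14.1% for GTTGCC, 11.1% against 5.02% for GTTGCCA and 2.78% against 0.877% for GTTGCCATG. Over the 11318 genes these 3 shares were 15%, 4.98% and 0.857%. All 5 forms were counted before the 2 longer ones were chosen for display, so the shares are a description. The matched letters are in capitals and each sequence is printed 5′ to 3′ on the strand of its gene.
Ift57: ccctgcgGTTGCCTGGTAACggtgggg
Bbs7: cgccccgGTTGCCTTGGAAACcggccag
Cep19: gccttctGTTGCCTTGGGAACgatcctc
Cep41: gtcccgcGTTGCCCTTGGCAACcattgag
Cep83: cctccgaGTTTCCCGGGCTACctcaacc
Cep112: ccggagcGTCGCCATGGCAACagagttg
Bbs1: tgagctgGTTGCCAAGGCGACgcctggg
Bbs4: tcagctgGTCGCCCGGGAAACggtcggc
The first 4 hold the strict form, and the other 4 the looser form alone. Cep44 and Ift22 also hold the looser form and are not printed. The first 4 lie at chr16:49699227-49699253 (plus strand) for Ift57, chr3:36613490-36613517 (minus) for Bbs7, chr16:32099804-32099831 (plus) for Cep19 and chr6:30693859-30693887 (minus) for Cep41. The other 4 are at chr10:94688769-94688796 (plus) for Cep83, chr11:108425175-108425202 (plus) for Cep112, chr19:4906606-4906633 (minus) for Bbs1 and chr9:59353465-59353492 (minus) for Bbs4. Counted from the start that the RefSeq window uses, which can differ from the start of the deposited gene model, the match begins 60 bases before it in Ift57 and 14 before it in Cep83, and 23 after it in Cep19. Of the 10 genes with a match, 8 were higher in the CaMK2a IP than in its input after PBS by the test described next (0 lower), and of the 26 with a window and no match 13 were higher and 4 lower. Of all genes tested there 32.6% were higher and 31.6% lower, and of the 494 tested with the looser form 31.2% were higher and 31% lower. Ift22 and Cep41 are the 2 genes with a match that did not pass.

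Depth was 6.06 to 15.8 M counted reads per library. Levels below are CPM, read counts scaled to library size with TMM factors over the 28 libraries, and changes are log2 fold changes ± SE from edgeR's quasi-likelihood test with Benjamini-Hochberg adjusted p over all genes tested and a threshold of 0.05. Summed over Pvalb, Gad1 and Slc32a1, markers of the PV-Cre cells, PV IP libraries held 1136 to 1994 CPM and their inputs 190 to 268, while CaMK2a IP libraries held 30.0 to 81.0 and their inputs 226 to 366. Camk2a, Slc17a7 and Neurod6 together stood at 9006 to 10406 CPM in the CaMK2a IP and 7886 to 8982 in its input after PBS, and at 6978 to 8356 and 6680 to 7067 after KA, where the ranges overlap. Of these 3, Camk2a and Neurod6 were higher in the CaMK2a IP after PBS, while Slc17a7 was lower, at 882 CPM against 1186 as group means, and after KA Neurod6 was higher, Slc17a7 lower and Camk2a did not pass. The PV libraries of replicate 4 stood apart, with correlations of their deviations from the group means of 0.55 to 0.81 between groups. In 9 of the 44 genes (20.5%), Cep290, Cep83, Cep350 and Cep170 among them, replicate 4 was the lowest of its group in all 4 PV groups, against 11% of 12878 genes. For the PV IP the sum of Camk2a, Slc17a7 and Neurod6 was 3234 to 6383 CPM, against 7368 to 9348 CPM in its inputs. In these bulk samples fewer cells of a type and less RNA per cell cannot be told apart.

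In the CaMK2a line after PBS, 26 of the 42 genes tested were higher in the IP than in the input and 4 were lower. These are 61.9% and 9.52% of the 42, where 32.6% of all 11190 genes tested were higher and 31.6% lower. The median log2 fold change was 0.58 over the 42 genes and -0.01 over all genes. After KA 20 of 42 were higher and 2 lower, against 24.3% and 25.8% of all 11076, with medians of 0.59 and -0.02. Of the 26 genes higher after PBS, 19 (73.1%) were higher after KA, which is 95% of the 20, and the 2 treatments share no library. The share of all genes higher after both treatments was not computed, so this overlap has no background. By family, 15 of 23 Cep genes, 6 of 11 Ift genes and 5 of 8 Bbs genes were higher after PBS. The 4 lower genes became 2 without input replicate 2, and after KA the 2 became 1 without KA input replicate 1 or KA IP replicate 3. Of all genes 58.3% then passed in either direction after PBS, in place of 64.2%. After KA 41.2% and 40.1% did, in place of 50.1%. With upper-quartile factors, which move the median of all genes to -0.13 and -0.15, 19 genes were higher and 4 lower after PBS and 17 and 3 after KA. In either direction that is 54.8% and 47.6% of the 42, against 64.3% and 50.1% of all genes. The same shares in the main fit were 71.4% and 52.4% of the 42, against 64.2% and 50.1% of all genes. Counting only genes whose libraries did not overlap, 26 of the 42 were higher and 3 lower after PBS, against 33.3% and 34.4% of all genes, and 23 and 3 after KA, against 29.1% and 29.7%.

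**Figure D1:**
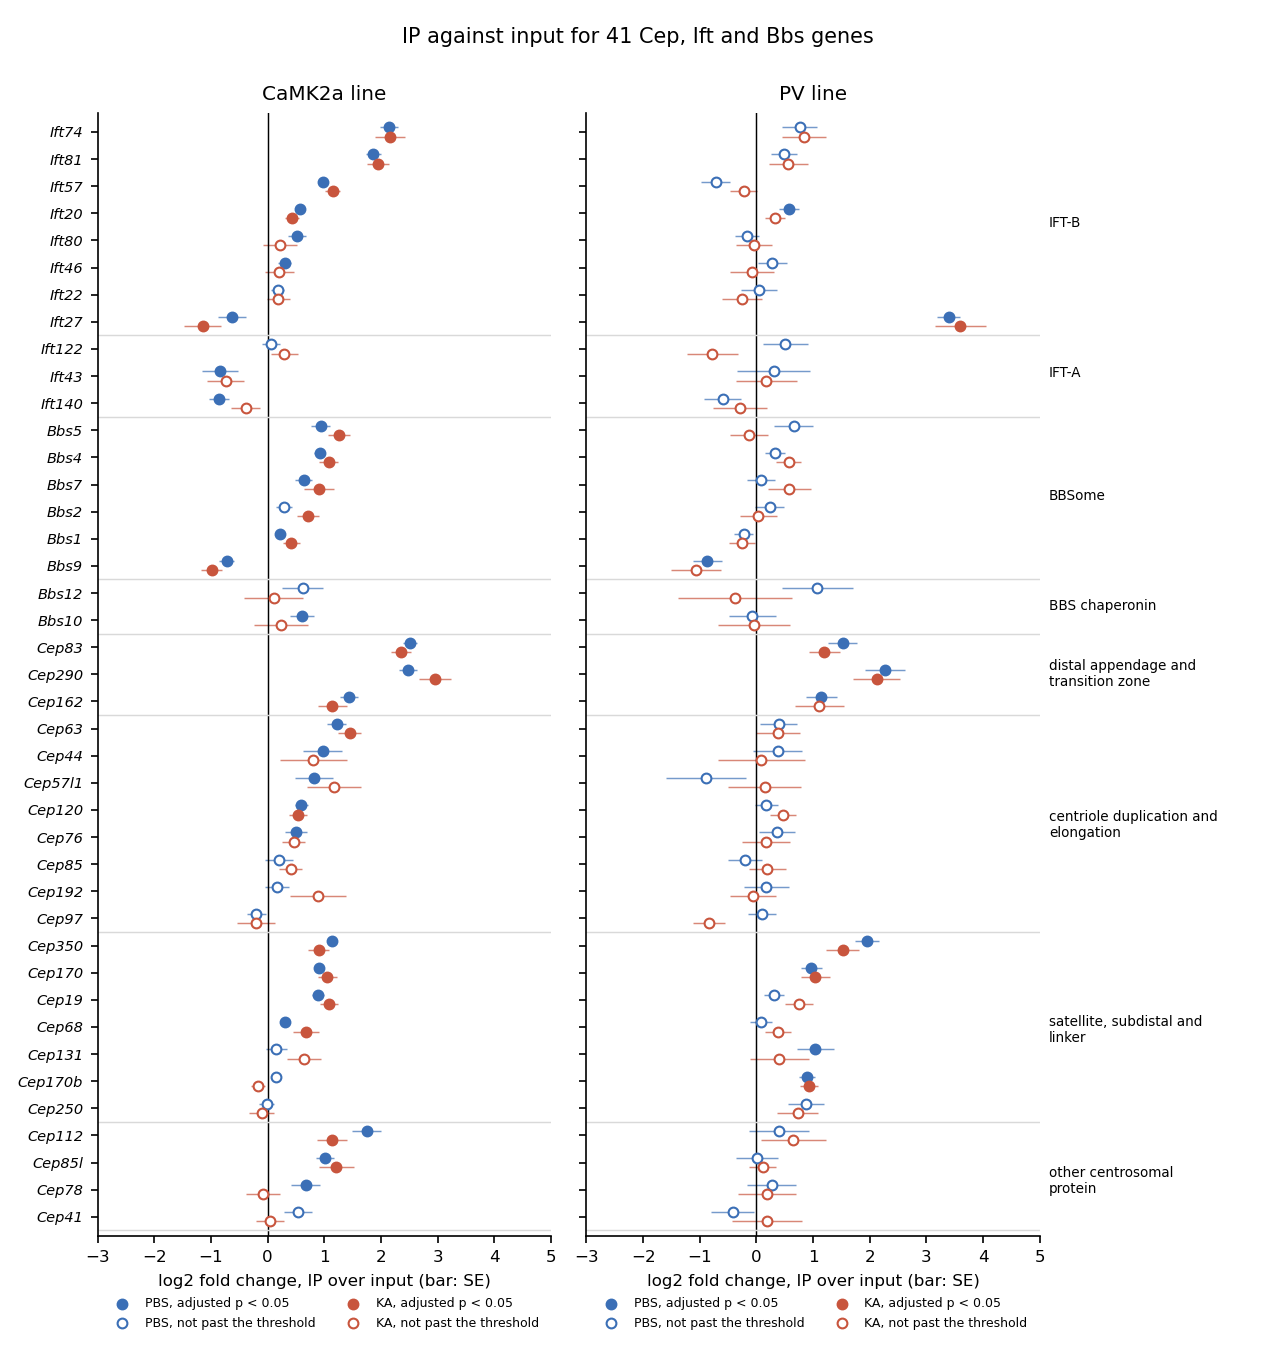
Log2 fold change of IP over input (x axis; bars are SE) for 41 of the 42 genes tested (y axis, grouped by role), in the CaMK2a line on the left and the PV line on the right, after PBS (blue) and KA (red). Filled points passed an adjusted p of 0.05. Cep83, Cep290 and Cep162 lie to the right of 0 in all 4 comparisons, and Ift27 lies on the left in the CaMK2a line and far to the right in the PV line.

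All 3 genes of the distal appendages and the transition zone were higher in the CaMK2a IP after both treatments. Of all genes 32.6% were higher after PBS and 24.3% after KA. Cep83 (chr10:94688491-94790336, plus strand, mm10) encodes a distal appendage protein needed for docking. Its level was 68.3, 54.0 and 64.1 CPM in the IP after PBS and 12.4, 9.97 and 10.6 CPM in the input. The groups lay far apart, with a log2 fold change of 2.52 ± 0.12, a 5.73-fold difference (adjusted p = 2.35e-11). After KA its difference was 2.35 ± 0.18 (adjusted p = 3.18e-06). Cep290 (chr10:100487548-100573655, plus strand) encodes a transition zone protein whose loss causes several human ciliopathies. It was at 37.2, 32.5 and 39.9 CPM in the IP after PBS and 8.24, 6.52 and 4.63 CPM in the input, without overlap. Its log2 fold change was 2.48 ± 0.16 after PBS (adjusted p = 1.01e-09) and 2.95 ± 0.28 after KA (adjusted p = 1.2e-05). Cep290 shares 881 exonic bases with 4930430F08Rik on the opposite strand in GENCODE M21, and strand is not stated, so their reads cannot be told apart. Cep162, which helps to assemble the transition zone, differed by 1.44 ± 0.17 after PBS and 1.14 ± 0.25 after KA.

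Among the 8 IFT-B genes 6 were higher and 1 was lower in the CaMK2a IP after PBS, against 32.6% and 31.6% of all genes. Ift74 and Ift81 encode partners that together bind tubulin as cargo, and they had the largest differences of the 8. Ift74 (chr4:94603266-94693233, plus strand) was at 30.5, 25.1 and 25.4 CPM in the IP and 6.5, 6.98 and 4.89 CPM in the input. Ift81 (chr5:122550191-122614546, minus strand) was at 39.8, 35.9 and 38.7 CPM in the IP and 11.8, 11.4 and 8.20 CPM in the input. Both pairs of groups were apart, with log2 fold changes of 2.14 ± 0.16 and 1.86 ± 0.13 (adjusted p = 5.11e-09 and 3.07e-09), and after KA of 2.16 ± 0.27 and 1.94 ± 0.19. Ift57, a peripheral IFT-B subunit, was at 98.6 to 108 CPM in the IP and 47.6 to 58.5 CPM in the input, a log2 fold change of 0.98 ± 0.08. Ift20, which also works at the Golgi, had 0.56 ± 0.07, Ift80 0.52 ± 0.16 and Ift46 0.30 ± 0.11, while Ift22 did not pass. The subunits thus spanned from 2.14 in Ift74 down to -0.62 in Ift27, all in the same libraries.

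Of the 3 IFT-A genes 2 were lower in the CaMK2a IP after PBS and none was higher by edgeR. Of all genes 31.6% were lower and 32.6% higher. Ift140 was at 7.20, 9.52 and 6.72 CPM in the CaMK2a IP after PBS and 13.7, 13.4 and 15.6 CPM in the input, so the IP was lower in every library (log2 fold change -0.86 ± 0.18, adjusted p = 0.000573). Ift43 was lower by the test (-0.84 ± 0.31, adjusted p = 0.0278) but its groups overlapped. Ift122 had 0.06, and after KA none of the 3 passed, at adjusted p over 0.05 with values of -0.74 to 0.30. At an unadjusted p under 0.05 3 of the 42 genes were lower after KA, where the share of all genes was not computed. DESeq2 called 2 lower and, in either direction, 52.4% of the 42 against 48.7% of all genes.

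Of the 6 BBSome genes 4 were higher and 1 lower after PBS, and 5 were higher and 1 lower after KA. Of all genes 32.6% were higher and 31.6% lower after PBS, and 24.3% and 25.8% after KA. Bbs5, whose protein binds membrane lipids, had 0.94 ± 0.17 after PBS and 1.26 ± 0.20 after KA, and Bbs4 had 0.92 ± 0.10 and 1.08 ± 0.17. Bbs9 went the other way in the same libraries. Its level was 14.3, 17.2 and 16.1 CPM in the IP and 26.6, 24.4 and 28.0 CPM in the input after PBS, a log2 fold change of -0.72 ± 0.13 (adjusted p = 0.000112), and -0.99 ± 0.19 after KA (adjusted p = 0.00114). Of the 2 genes for chaperonin-like proteins that assemble the BBSome, Bbs10 was higher after PBS (0.61 ± 0.22) and Bbs12 did not pass (0.62).

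Among 8 genes of centriole duplication and elongation 5 were higher after PBS and 2 after KA, and none was lower by edgeR. Of all genes 32.6% were higher after PBS and 24.3% after KA, so the count after KA is near the share of all genes. Cep63, a scaffold at the site where a new centriole forms, was at 31.9, 22.3 and 25.2 CPM in the CaMK2a IP after PBS and 13.9, 11.3 and 8.99 CPM in the input. Its log2 fold change was 1.22 ± 0.17 after PBS and 1.45 ± 0.19 after KA. Of 7 tested genes of centriolar satellites, subdistal appendages and the linker between centrioles, 4 were higher after each treatment. Cep350 had 1.14 ± 0.09 and Cep170, a subdistal appendage protein, 0.91 ± 0.09 after PBS. Cep112 was low, at 7.39, 7.08 and 7.30 CPM in the IP and 2, 2.54 and 1.98 CPM in the input, with 1.75 ± 0.25 (adjusted p = 1.30e-05).

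**Figure D2:**
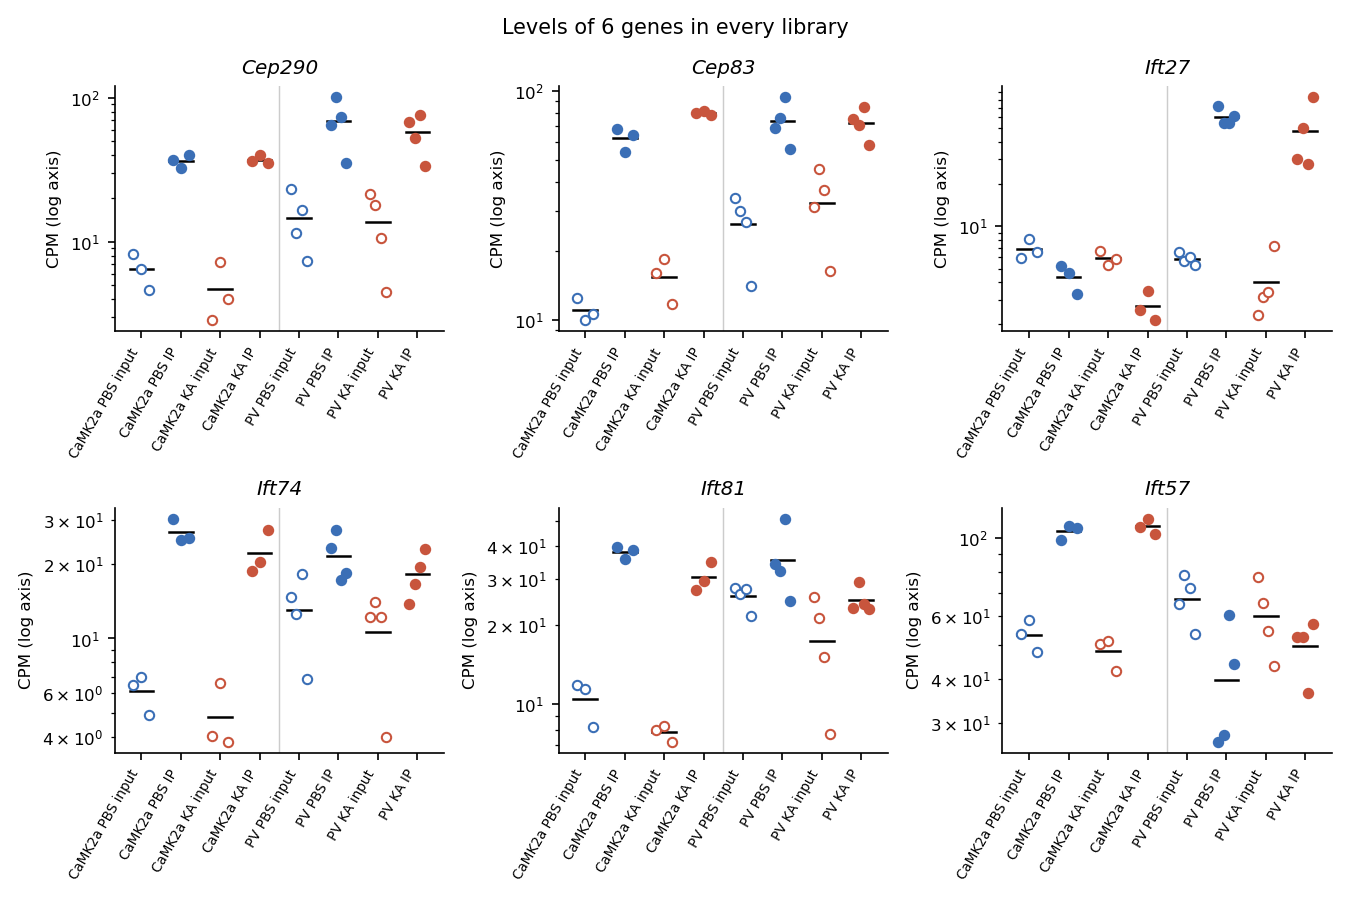
CPM per library (y axis, log scale) of Cep290, Cep83, Ift27, Ift74, Ift81 and Ift57 in the 8 groups (x axis). Open points are input, filled points IP, blue PBS and red KA, and black lines are group means. The CaMK2a IP lies above its input for Cep290, Cep83, Ift74, Ift81 and Ift57, and Ift27 is the gene of the 6 whose PV IP libraries, at 27.9 to 83.2 CPM, stand apart from all other groups.

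In the PV line after PBS 9 of 42 genes (21.4%) were higher in the IP and 1 was lower, against 10.6% and 7.98% of all 11204 genes tested, and the medians were 0.31 over the 42 and 0.02 over all. After KA 6 were higher, against 6.85% of 11205 genes, and by edgeR 0 lower, against 4.11%. At an unadjusted p under 0.05 2 were lower, where the share of all genes was not computed, and by DESeq2 1. In either direction DESeq2 called 19% of the 42 and 15.5% of all genes. The medians after KA were 0.19 and 0.02. Without overlap between libraries 9 genes were higher and 1 lower after PBS, against 11.4% and 11.5% of all genes, and 8 and 1 after KA, against 8.64% and 10.2%. All 6 higher after KA were among the 9 after PBS: Ift27, Cep290, Cep350, Cep83, Cep170 and Cep170b. For this overlap too the share of all genes was not computed. Input and IP of 1 replicate number come from 1 lysate pool, and with that number as a block 11 genes were higher and 2 lower after PBS and 8 and 2 after KA, where 30.1% and 21.4% of all genes passed in either direction. Upper-quartile factors gave 7 higher and 2 lower after PBS and 6 and 1 after KA. In either direction these are 21.4% and 16.7% of the 42, against 18.9% and 11.4% of all genes. The same shares in the main fit were 23.8% and 14.3%, against 18.5% and 11%. Without replicate 4 of each group the counts were 8 and 1 after PBS and 6 and 0 after KA, or 21.4% and 14.3%, against 23.4% and 15.4%. The 1 lower gene after PBS was Bbs9 (-0.86 ± 0.25, adjusted p = 0.0276), and its call ended without input replicate 2, 3 or 4 or IP replicate 2 or 3. The lower count was then 0 without input replicate 2, input replicate 3 or IP replicate 2, and after KA 1 gene was lower without input replicate 4 or IP replicate 1. Of all genes 12.5%, 13% and 15% passed in either direction in the runs after PBS, in place of 18.5%. In the runs after KA 10.4% and 8.82% did, in place of 11%.

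Cep290 was at 64.5, 101, 73.9 and 35.1 CPM in the PV IP after PBS and 23.2, 11.5, 16.5 and 7.37 CPM in the input. The lowest IP library was above the highest input library, with a log2 fold change of 2.27 ± 0.35 (adjusted p = 0.000543), and of 2.12 ± 0.41 after KA (adjusted p = 0.00432). Cep83 was at 68.5, 76.1, 93.9 and 56.0 CPM in the IP and 34.2, 30.0, 26.8 and 14.1 CPM in the input, again without overlap. Its log2 fold changes were 1.52 ± 0.25 after PBS and 1.2 ± 0.28 after KA (adjusted p = 0.000878 and 0.0131). Cep350, which anchors microtubules at the centrosome, was at 262, 219, 246 and 149 CPM in the IP and 69.1, 61.9, 61.4 and 38.6 CPM in the input after PBS (1.96 ± 0.21, adjusted p = 2.31e-05). After KA its difference was 1.53 ± 0.29, and replicate 4 of the IP, at 80.8 CPM, overlapped the input. Cep162 had 1.15 ± 0.28 after PBS. Cep170 had 0.97 ± 0.19 after PBS and 1.04 ± 0.25 after KA, where its call ended without KA IP replicate 3 (adjusted p = 0.0509). Cep170b, the paralog of Cep170, was at 379 to 519 CPM in the IP and 242 to 293 CPM in the input after PBS, a difference of 0.89 ± 0.14 (adjusted p = 0.000687).

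Higher in the IP of both lines after PBS were 6 genes, Cep162, Cep170, Cep290, Cep350, Cep83 and Ift20, which is 23.1% of those called in the CaMK2a line and 66.7% of those in the PV line. Bbs9 was lower in both. The 2 lines share no library. After KA, Cep170, Cep290, Cep350 and Cep83 were higher in both. Cep290, Cep83, Cep350 and Cep170 were therefore higher in all 4 comparisons of IP with input. The share of all genes called in both lines, or in all 4 comparisons, was not computed. These overlaps are therefore a description.

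Ift27, a small GTPase of the IFT-B complex through which the BBSome leaves the cilium, had the largest difference of the 42 genes in the PV line and went the other way in the CaMK2a line. In the PV line after PBS it was at 72.3, 54.6, 54.3 and 60.6 CPM in the IP and 6.52, 5.70, 6.04 and 5.31 CPM in the input. After KA it was at 30.2, 50.5, 27.9 and 83.2 CPM in the IP and 2.33, 3.15, 3.39 and 7.28 CPM in the input. No library overlapped, and the log2 fold changes were 3.39 ± 0.21 and 3.60 ± 0.45 (adjusted p = 1.73e-07 and 0.000158). The CaMK2a libraries after PBS were at 5.21, 4.63 and 3.31 CPM in the IP and 5.91, 8.15 and 6.61 CPM in the input (-0.62 ± 0.25, adjusted p = 0.0354). After KA the CaMK2a IP held 2.51, 3.44 and 2.15 CPM and the input 6.68, 5.27 and 5.83 CPM (-1.15 ± 0.33, adjusted p = 0.0116). These lower values did not hold under all settings. After PBS the call ended with a length correction (-0.38, adjusted p = 0.182), a GC correction (-0.37, adjusted p = 0.197), DESeq2 (adjusted p = 0.0524), and without input replicate 2 (-0.48) or IP replicate 3 (-0.44). After KA it ended with a length correction (-0.83, adjusted p = 0.0515) and without input replicate 1 or IP replicate 3.

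Ift27 (chr15:78159463-78174108, minus strand, mm10) lies next to Pvalb (chr15:78191117-78206351, minus strand), the parvalbumin gene, at a gap of 17009 bases, with Pvalb upstream. The neighbours were looked up after the values of Ift27 were seen. Pvalb was at 151 CPM in the PV IP and 11.7 CPM in its input after PBS, as group means, with log2 fold changes of 3.71 ± 0.32 after PBS and 4.26 ± 0.36 after KA. Pvalb had -3.07 ± 0.17 in the CaMK2a line after PBS, against -0.62 for Ift27. On the other side, 40183 bases away, Cacng2, which encodes an AMPA receptor partner, had 1.68 ± 0.15 in the PV line after PBS, and Myh9, a non-muscle myosin gene 317288 bases away, 3.15 ± 0.37. Of 33 other genes within 1000 kb that were tested there, these 3 were higher and 3 were lower. Ift27 shares no exonic base with another gene in GENCODE M21. Mice of the PV line alone carry PV-Cre. Whether reads from that allele or from transcripts of Pvalb enter the Ift27 count was not tested.

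**Figure D3:**
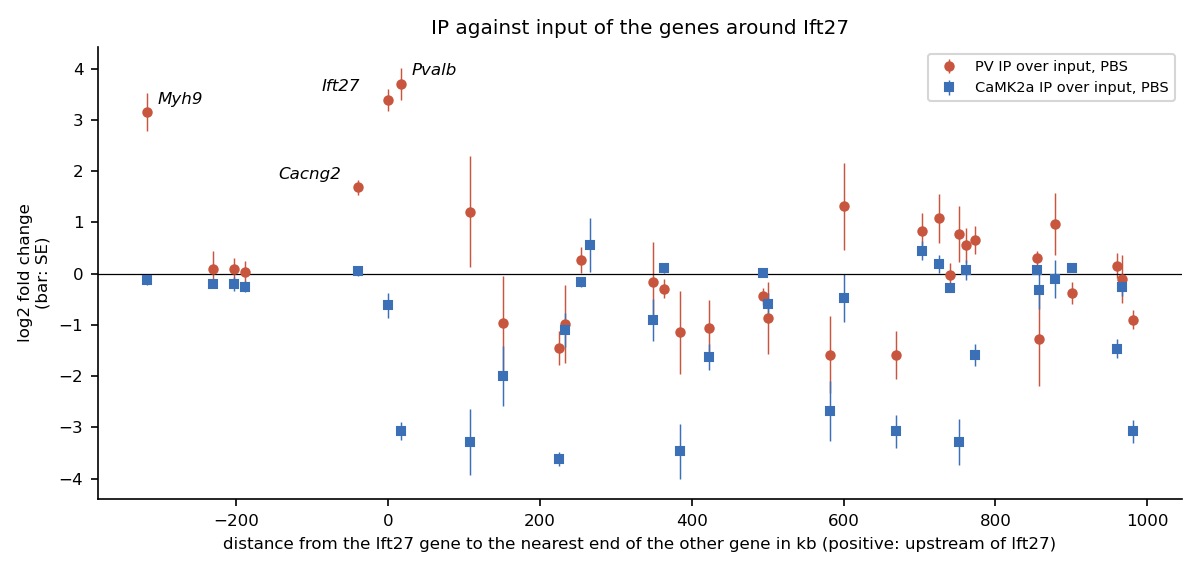
Log2 fold change of IP over input after PBS (y axis; bars are SE) for Ift27 and the genes tested within 1000 kb, against the distance in kb from Ift27 (x axis, positive upstream), in the PV line (red) and the CaMK2a line (blue). Ift27 and Pvalb stand next to each other at 3.39 and 3.71 in the PV line, and at -0.62 and -3.07 in the CaMK2a line.

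The difference between the lines was tested itself, as PV minus CaMK2a of the log2 fold change of IP over input, over all 28 libraries. The lines differ in RNA input and pool size as well as in Cre driver, which cannot be told apart. Of 43 genes tested 2 were higher in the PV line after PBS and 4 lower, against 11.6% and 10.5% of 12194 genes, which is 4.65% and 9.3% of the 43. After KA 2 were higher and 6 lower, against 11.8% and 12.5%. Ift27 differed by 4.00 ± 0.48 after PBS and 4.68 ± 0.50 after KA (adjusted p = 4.27e-07 and 8.55e-08). Cep170b differed by 0.73 ± 0.18 and 1.04 ± 0.18 (adjusted p = 0.00329 and 9.22e-05). Cep170b had shown little difference in the CaMK2a line, at 317, 333 and 296 CPM in the IP and 281, 268 and 318 CPM in the input after PBS.

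Ift57, Ift74 and Ift81, all of IFT-B, had smaller IP to input ratios in the PV line after both treatments. For Ift57 the PV IP held 26.7, 27.8, 60.4 and 44.2 CPM after PBS and the input 65.0, 78.4, 72.3 and 53.4 CPM, where the CaMK2a IP had been above its input in every library. The difference between lines was -1.73 ± 0.32 after PBS and -1.44 ± 0.32 after KA (adjusted p = 0.000188 and 0.00130). Ift74 differed by -1.40 ± 0.47 and -1.39 ± 0.48, and Ift81 by -1.40 ± 0.38 and -1.44 ± 0.39. In the PV line itself Ift74 was at 17.3 to 27.5 CPM in the IP and 6.89 to 18.1 CPM in the input after PBS, which did not pass. Bbs4 was lower in the PV line after PBS (-0.62 ± 0.23, adjusted p = 0.0497), and Bbs5 (-1.45 ± 0.38), Cep83 (-1.22 ± 0.37) and Bbs1 (-0.74 ± 0.25) after KA. Cep83 after PBS had -1.01 ± 0.38 (adjusted p = 0.0535), and passed with the replicate block (-0.97, adjusted p = 0.0109) and without the replicate 4 libraries (-1.14, adjusted p = 0.000763). Cep290 differed by -0.25 ± 0.57 after PBS and -0.89 ± 0.59 after KA and passed in neither.

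Gene length and base composition were set against these differences. The deposited length of the gene model had a median of 3974.5 bases over the 44 genes (802 to 14531) and 3124 over all genes, and 4355 in Cep, 3347 in Ift and 2807 in Bbs genes, so the Bbs median lay below that of all genes. Spearman's rho between length and log2 fold change of IP over input, across genes of the same libraries, was -0.16 over the 42 in the CaMK2a line after PBS and 0.174 over 11190 genes, and -0.107 and 0.189 after KA. For the PV line it was 0.107 over the 42 and 0.0326 over all after PBS, and 0.153 and 0.0709 after KA. All genes tested were put in 10 bins of length, whose medians in the CaMK2a line after PBS ran from -0.27 to 0.23, and 33 of the 42 genes lay above the median of their own bin, 33 after KA, and 30 and 29 in the PV line. With a correction for length in the fit, the median of the 42 in the CaMK2a line went from 0.58 to 0.56 after PBS, and 24 genes were higher and 4 lower. After KA it went from 0.59 to 0.60, with 19 higher and 2 lower. In either direction 66.7% of the 42 passed after PBS and 50% after KA, against 63.5% and 49.9% of all genes. Without the correction these were 71.4% and 52.4%, against 64.2% and 50.1%. Exon number had rho of 0.047 and 0.154 over the 42 in the CaMK2a line after PBS and KA, and 0.221 and 0.286 in the PV line.

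GC content, taken from the longest GENCODE M21 transcript of each gene and known for all 44, had a median of 46.1% over the genes and 49.8% over all. In the CaMK2a line genes of low GC had the larger differences: rho was -0.729 over the 42 after PBS and -0.657 after KA, and -0.36 and -0.395 over all genes. Cep290, at 38.7% GC, Cep83, at 40.4%, and Ift74, at 41.6%, are at the low end, and Ift27, at 55.8%, at the high end. For the PV line rho was -0.114 and -0.0458 over the 42 and -0.0164 and 0.021 over all. With a GC correction, added after the data were seen, the median of the 42 in the CaMK2a line fell to 0.37 after PBS, with 23 higher and 3 lower, and was 0.57 after KA, with 19 higher and 2 lower. In either direction 61.9% of the 42 passed after PBS and 50% after KA, against 62.3% and 48.1% of all genes. Without the correction these were 71.4% and 52.4%, against 64.2% and 50.1%. Of the 42, 35 lay above the median of their own GC bin in the CaMK2a line after PBS and 32 after KA.

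**Figure D4:**
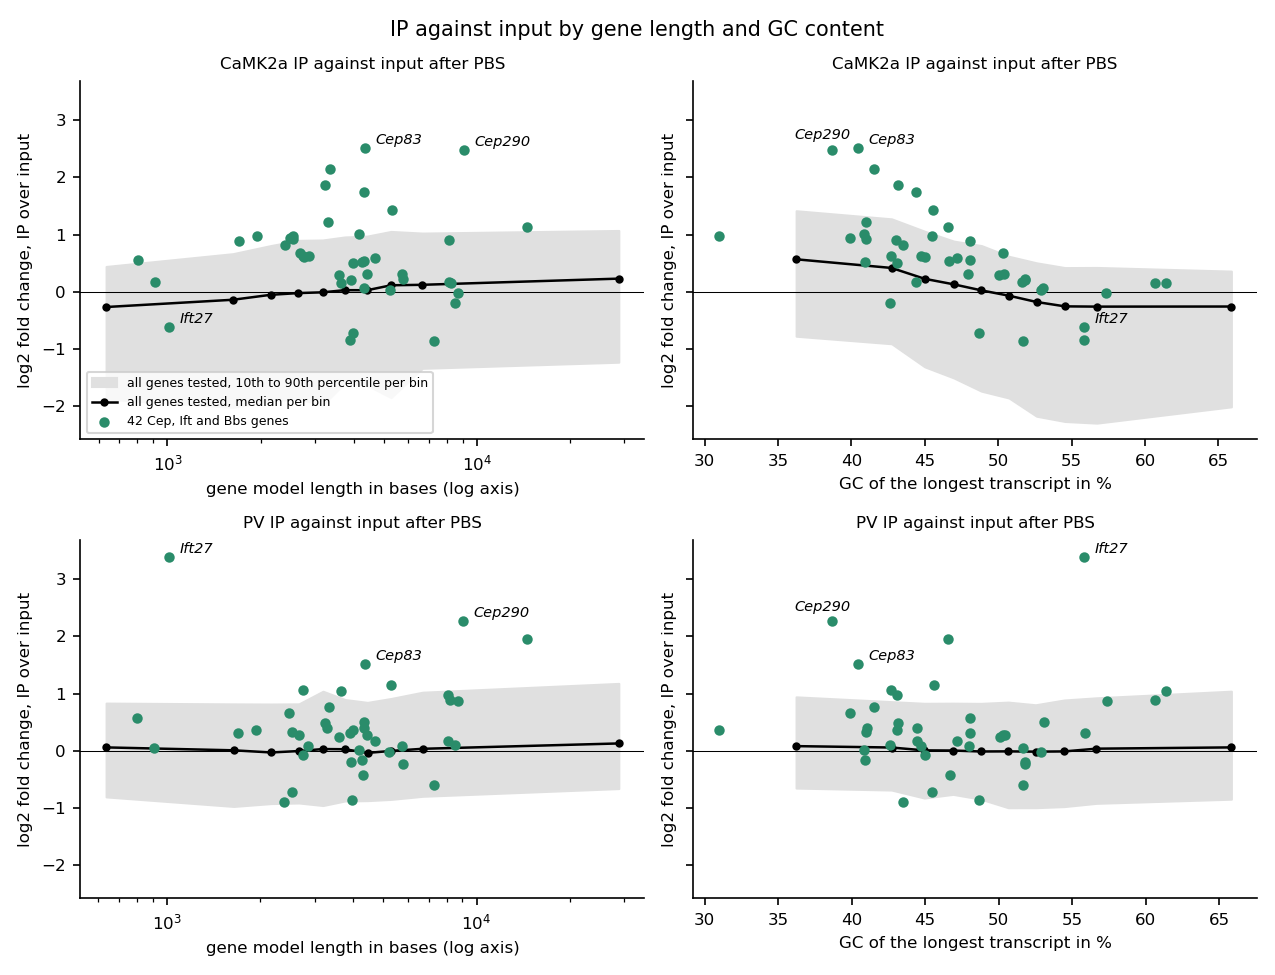
Log2 fold change of IP over input after PBS (y axis) against gene model length in bases (left, log axis) and GC in % (right), in the CaMK2a line (top) and the PV line (bottom). Green points are the 42 genes, the black line is the median of all genes tested in each of 10 bins and the grey band runs from the 10th to the 90th percentile. In the CaMK2a line the green points fall with rising GC, with Cep290 and Cep83 at the top left and Ift27 near the bottom right.

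Ependymal cells carry many motile cilia and express ciliary genes, so their markers were measured in the same libraries. Of 7 markers 6 were in all tables and none of the 6 had a group mean of 0, while the other one was not analysed here. Their summed level was 4.67 to 5.79 CPM in the CaMK2a IP and 14.7 to 18.2 CPM in its input after PBS, and 5.03 to 6.44 and 12.1 to 20.3 CPM after KA. Of 4 tested, 3 were lower in the CaMK2a IP after each treatment and 0 higher by edgeR. In the PV line the sum was 10.9 to 17.1 CPM in the IP and 12.1 to 22.4 CPM in the input after PBS, and 10.8 to 22 and 14.3 to 19.4 CPM after KA, and edgeR called 0 of 6 tested after PBS and 0 of 5 after KA. The 6 did not go one way: Foxj1 had group means of 7.70 CPM in the PV IP and 4.45 in the input after PBS and 13.7 and 6.58 after KA, and Rsph1 2.64 and 6.74 after PBS and 1.495 and 4.25 after KA. Markers of dividing cells, in which centrosome genes are also used, summed to 10.9 to 18.5 CPM in the PV IP and 3.56 to 8.66 CPM in its input after PBS, and to 1.86 to 2.83 CPM in the CaMK2a IP. After KA they summed to 14.4 to 45.7 CPM in the PV IP and 6.28 to 20.95 CPM in its input. The PV IP sums rest mostly on Mki67, with group means of 11.2 CPM after PBS and 27 CPM after KA, which was higher in the PV IP (1.52 ± 0.43 after PBS and 2.001 ± 0.50 after KA, adjusted p = 0.0228 and 0.0197), while Top2a had 0.21 and -0.24 and did not pass. The part of these markers in the members' values was not tested.

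Markers of other cells were lower in the CaMK2a IP than in its input after PBS in all 15 tested, namely 4 astrocyte, 3 oligodendrocyte, 5 microglia and 3 endothelial genes, with medians of -2.96, -2.21, -3.69 and -2.03. In the PV IP after PBS 4 of 4, 1 of 3, 4 of 5 and 0 of 3 were lower, with medians of -0.89, -0.35, -1.19 and -0.89, and none of the 15 was higher. As a difference between the lines, PV minus CaMK2a, the medians were 1.68, 1.85, 2.22 and 1.37 after PBS and 1.39, 1.69, 1.48 and 2.39 after KA. The part of these cells in the values of the genes lower in an IP, or in the differences between lines, was not tested.

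After KA the genes moved in both directions in the CaMK2a line. In its IP 6 of 42 were higher than after PBS and 8 lower, against 19.8% and 15.3% of 10663 genes, with a median of -0.20 over the 42 and 0.01 over all. Read against those shares, 14.3% of the 42 were higher and 19.1% lower in the IP. Without overlap, 7 were higher and 14 lower in the IP, against 25.1% and 24.1% of all genes, and 7 and 10 in the input, against 24.0% and 23.6%. In its input 6 were higher and 9 lower, against 19.3% and 15.7% of 11287 genes, with medians of -0.26 and -0.02. With upper-quartile factors, whose median over all genes was -0.09 in the IP and -0.08 in the input, the split was 3 higher and 13 lower in the IP and 4 and 12 in the input. In either direction that is 38.1% of the 42 in each fraction, against 37% and 36.6% of all genes. The same shares in the main fit were 33.3% in the IP and 35.7% in the input, against 35.1% and 35%. Same-numbered input libraries correlated by 0.107 to 0.315, but KA input replicate 2 matched PBS input replicate 1 best, so the number is an uncertain pairing. With the number as a block 7 were higher and 12 lower in the input, where 39.7% of all genes passed in either direction in place of 35%. In the IP the higher genes became 3 without KA IP replicate 3 or PBS IP replicate 3, and the lower ones 5 without PBS IP replicate 1. Of all genes 24.5%, 22.8% and 22.9% passed in either direction in these runs, in place of 35.1%. In the input the higher genes became 3 without KA input replicate 1, PBS input replicate 1 or PBS input replicate 2. The lower ones became 5 without KA input replicate 1 or PBS input replicate 1, and 15 without KA input replicate 2. The share of all genes passing in either direction moved too, from 35% in the main fit. It was 28.7% without KA input replicate 1, 26.5% without PBS input replicate 1 and 25.3% without PBS input replicate 2. Without KA input replicate 2 it was 37.7%.

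Cep85, a centrosomal protein of the duplication group, was higher after KA in both fractions of the CaMK2a line. In the IP it was at 16.3, 19.3 and 18.5 CPM after KA and 9.58, 9.13 and 8.27 CPM after PBS, without overlap (1.01 ± 0.16, adjusted p = 0.00110). In the input it had 0.76 ± 0.26 (adjusted p = 0.0280), a call that ended without KA input replicate 3 (adjusted p = 0.0857), PBS input replicate 1 (0.0620) or PBS input replicate 3 (0.111). Bbs5 was at 22.1, 31.5 and 28.8 CPM in the IP after KA and 13.8, 14.4 and 15.3 CPM after PBS (0.93 ± 0.16, adjusted p = 0.00159). In the input Bbs5 had 0.56 ± 0.20 (adjusted p = 0.0393), which was lost with DESeq2 (adjusted p = 0.0506), with upper-quartile factors (0.0626) and without KA input replicate 1 or 2 or PBS input replicate 1 or 2.

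Cep85l, mutated in a human cortical malformation, was at 50.4, 19.2 and 27.3 CPM in the CaMK2a IP after KA and 15.6, 18.7 and 17.8 CPM after PBS. Replicate 1 was the highest by far, and the difference of 0.91 ± 0.30 (adjusted p = 0.0386) became 0.43 without it (adjusted p = 0.0783). The call also ended with upper-quartile factors (adjusted p = 0.0596) and without KA IP replicate 3 or any 1 of the PBS IP replicates 1, 2 and 3. In the CaMK2a input it had 0.66 ± 0.19, lost without KA input replicate 1 (adjusted p = 0.0621) or PBS input replicate 2 (0.0571), and in the PV input 1.08 ± 0.26 (adjusted p = 0.0187), lost without KA input replicate 1 or 2 or PBS input replicate 2. The PV input held 31.4, 35.9, 27.2 and 24.0 CPM after KA and 18.2, 9.19, 17.8 and 9.98 CPM after PBS, without overlap. Cep85l shares 580 exonic bases with genes on the opposite strand, Pln and Gm47641. Cep78, a centriolar protein, was higher in the CaMK2a input (1.19 ± 0.27, adjusted p = 0.00208) at 10.1, 7.36 and 9.66 CPM against 4.33, 2.90 and 4.76 CPM, and did not pass in the IP.

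Cep170 and Cep83 were also higher in the CaMK2a IP after KA, by 0.48 ± 0.16 and 0.37 ± 0.11 (adjusted p = 0.0386 and 0.0234). The call of Cep170 ended without KA IP replicate 1 (0.28, adjusted p = 0.0697), KA IP replicate 3, PBS IP replicate 1 or PBS IP replicate 3, and with upper-quartile factors (adjusted p = 0.0884). That of Cep83 ended with upper-quartile factors (0.27, adjusted p = 0.0705) and without KA IP replicate 3, PBS IP replicate 2 or PBS IP replicate 3. In the CaMK2a input Cep83 had 0.49 ± 0.20 (adjusted p = 0.0667) and passed with the replicate block (adjusted p = 0.0396) and without KA input replicate 3 (0.0172). Cep290 had 0.03 ± 0.12 in the CaMK2a IP and -0.46 ± 0.32 in the input, neither past the threshold, but -0.92 in the input without KA input replicate 2 (adjusted p = 0.0398). Ift27 had -0.69 ± 0.33 and -0.22 ± 0.24, and did not pass.

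Genes of satellites, subdistal appendages and the linker were lower after KA more often than higher, with 4 of 7 lower and 1 higher in each fraction of the CaMK2a line, where 15.3% of all genes were lower and 19.8% higher in the IP and 15.7% and 19.3% in the input. Cep131, a satellite protein, was at 4.17, 3.29 and 3.37 CPM in the input after KA and 8.91, 8.24 and 9.25 CPM after PBS, without overlap (-1.28 ± 0.25, adjusted p = 0.000586). In the IP it had -0.74 ± 0.22 (adjusted p = 0.0249), which was lost without KA IP replicate 3, PBS IP replicate 1 or PBS IP replicate 2. Cep19, which works with Cep350 to start IFT, was at 19.6, 23.2 and 17.8 CPM in the input after KA and 38.0, 44.8 and 34.1 CPM after PBS (-0.95 ± 0.15, adjusted p = 9.97e-05), and had -0.71 ± 0.11 in the IP. Cep68, a linker protein, had -0.79 ± 0.16 in the input at 19.9, 30.7 and 19.9 CPM against 40.6, 43.5 and 38.9 CPM.

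Of the IFT-B genes 3 of 8 were lower in the CaMK2a IP after KA and 1 in the input, and none was higher by edgeR in either. Of all genes 15.3% were lower and 19.8% higher in the IP, and 15.7% and 19.3% in the input. Ift80 was at 8.34, 11.7 and 10.5 CPM in the IP after KA and 17.1, 17 and 19.8 CPM after PBS, without overlap (-0.81 ± 0.17, adjusted p = 0.00578). Ift46 had -0.75 ± 0.23 in the IP, lost without PBS IP replicate 1, 2 or 3, and -0.70 ± 0.16 in the input. Ift20 had -0.28 ± 0.09 in the IP. Cep162 was at 12.2, 16.3 and 12.0 CPM in the IP after KA and 20.9, 27.1 and 22.1 CPM after PBS (-0.78 ± 0.18, adjusted p = 0.00736). Bbs7, a BBSome subunit, had -0.76 ± 0.23 in the input, lost without KA input replicate 1 or PBS input replicate 2.

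**Figure D5:**
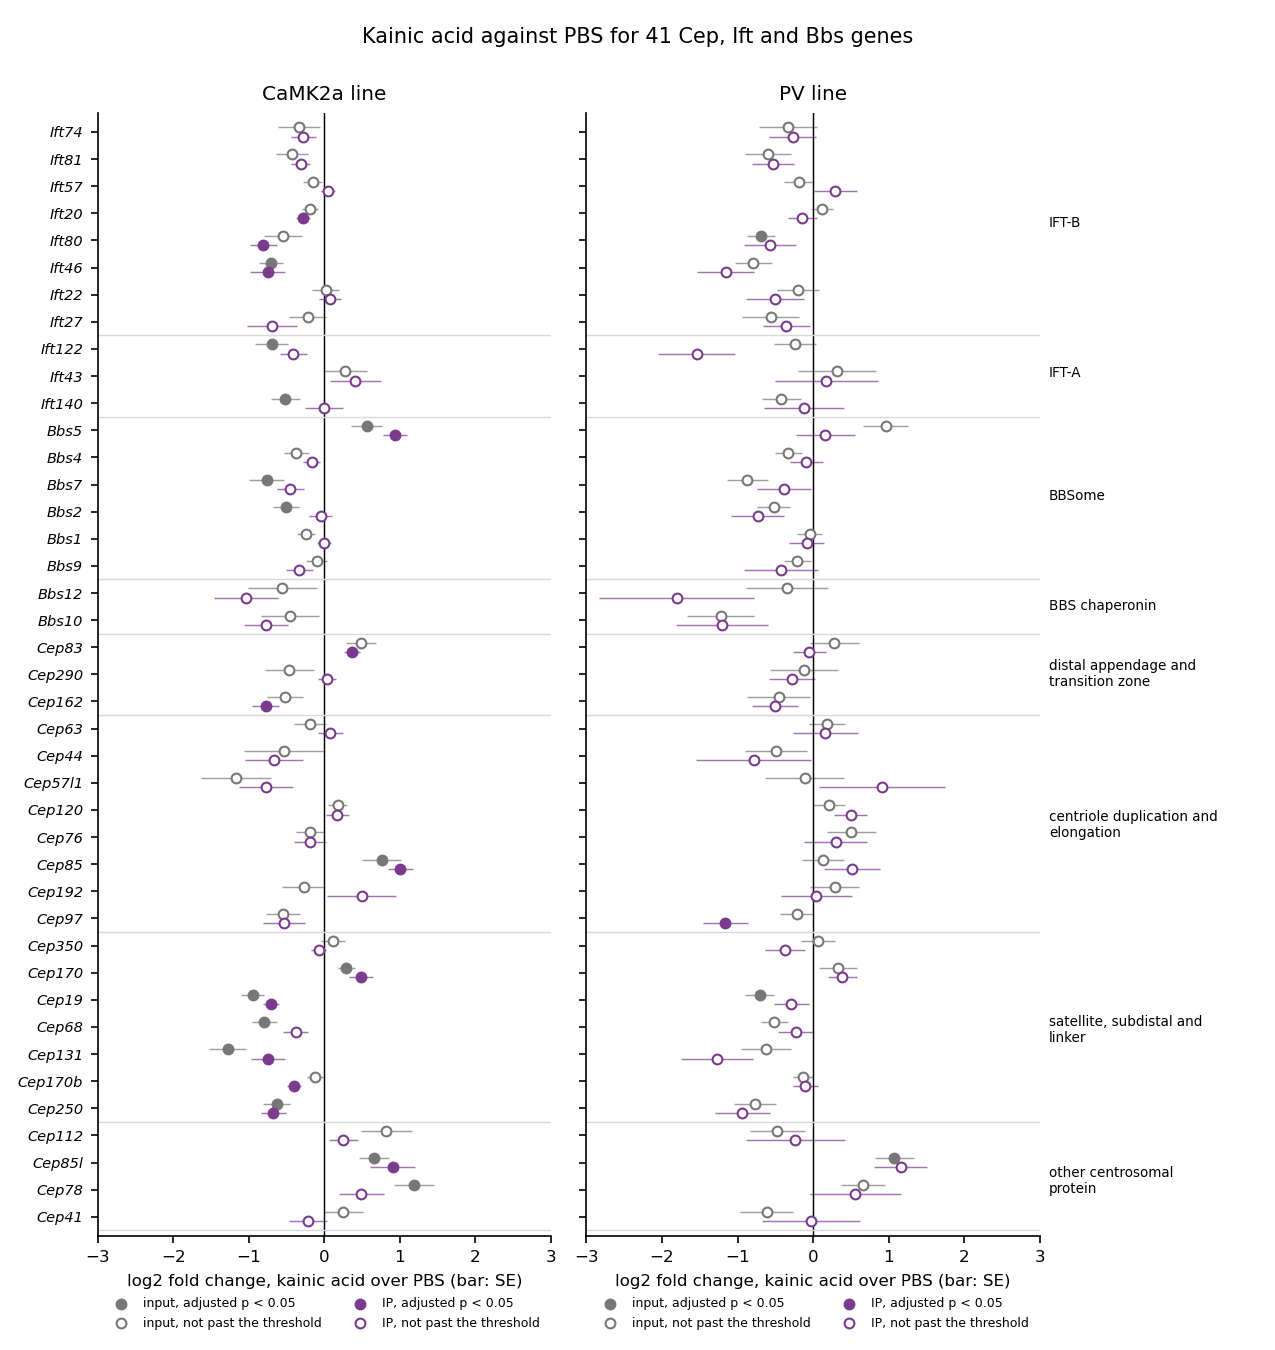
Log2 fold change of KA over PBS (x axis; bars are SE) for 41 of the 42 genes tested (y axis, grouped by role and in the same order as in the plot of IP against input), in the CaMK2a line on the left and the PV line on the right, in input (grey) and IP (purple). Filled points passed an adjusted p of 0.05. Cep85, Bbs5, Cep85l and Cep170 are filled on the right in both CaMK2a fractions, and Cep131, Cep19, Cep250 and Ift46 on the left.

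Few genes passed in the PV line after KA. In its IP edgeR called 0 higher and 1 lower, against 4.05% and 0.801% of 11107 genes. At an unadjusted p under 0.05 3 were higher and 5 lower, where the share of all genes was not computed. DESeq2 called 1 higher and 3 lower, or 9.52% of the 42 in either direction against 7.84% of all genes. The lower gene by edgeR was Cep97, a cap protein of the centriole end, at 21.4, 13.6, 20.5 and 13.3 CPM after KA and 43.8, 33.0, 48.3 and 26.2 CPM after PBS, without overlap (-1.16 ± 0.30, adjusted p = 0.0334). Its call ended without KA IP replicate 2, 3 or 4 or PBS IP replicate 1, 2 or 3. The lower count was 0 without KA IP replicate 2 or 3 or PBS IP replicate 2 or 3, and 1 gene was higher without KA IP replicate 4 or PBS IP replicate 1. Over the IP libraries left out 1 at a time, 3.23% to 6.65% of all genes passed in either direction, in place of 4.85%. Without overlap, 1 gene was higher and 2 lower in the PV IP, against 7.54% and 3.58% of all genes, and 4 and 2 in the PV input, against 12.1% and 6.72%. By the test, in the PV input 1 was higher, Cep85l, and 2 lower, Ift80 and Cep19, against 8.21% and 3.36% of 11145 genes. By correlation, KA input replicates 1 and 4 best matched the PBS input libraries of their own number. KA input replicates 2 and 3 best matched PBS input replicate 1, so the number is an uncertain pairing. With the number as a block 3 were higher and 9 lower, which is 28.6% of the 42. Of all genes 30.7% then passed in either direction in place of 11.6%. Without the replicate 4 libraries 3 were higher and 6 lower in the input, 21.4% of the 42 against 24.8% of all, and 0 and 2 in the IP, 4.76% against 6.87%. Leaving out 1 input library at a time, 0 were higher without KA input replicate 1, KA input replicate 2 or PBS input replicate 2, and 2 without KA input replicate 4 or PBS input replicate 1. The lower count was 0 without PBS input replicate 1 and 1 without KA input replicate 1 or 2 or PBS input replicate 2 or 3. Over the input libraries left out 1 at a time, 7.75% to 15.7% of all genes passed in either direction, in place of 11.6%. Ift80 was at 15.0, 11.8, 13.1 and 13.8 CPM in the PV input after KA and 22.3, 18.2, 22.6 and 21.7 CPM after PBS (-0.69 ± 0.18, adjusted p = 0.0308), and its call ended without KA input replicate 2 or 3 or PBS input replicate 1, 3 or 4. Cep83 had 0.28 ± 0.32 in the PV input and -0.05 ± 0.22 in the IP, Cep290 -0.12 ± 0.45 and -0.28 ± 0.31, and Ift27 -0.56 ± 0.38 and -0.35 ± 0.31, none past the threshold.

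Whether the effect of KA differed between IP and input was tested in each line. By edgeR 0 of 42 genes passed in the CaMK2a line in either direction, against 0.043% higher and 0.0602% lower of 11623 genes, and 0 in the PV line, against 0.00843% and 0.0169% of 11862. At an unadjusted p under 0.05 there were 0 in the CaMK2a line and 1, lower, in the PV line, and the share of all genes was not computed. DESeq2 was not run for these differences. The IP difference of Cep290 was 0.46 ± 0.34 larger after KA in the CaMK2a line and that of Ift27 0.23 ± 0.48 larger in the PV line.

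Lists of genes with other names, of these complexes and structures or working with them, were tested in the same fits. In these fits 32.6% of all genes were higher and 31.6% lower in the CaMK2a IP after PBS, and 10.6% and 7.98% in the PV IP. Of 6 further IFT-B genes tested 2 were higher in the CaMK2a IP after PBS and 0 lower, Cluap1 with 1.09 ± 0.13 and Traf3ip1 with 0.97 ± 0.12, and Traf3ip1 had 1.51 ± 0.20 in the PV IP. Of 4 further genes listed with IFT-A, not all of them subunits, Wdr35 was higher (0.45 ± 0.13) and Tulp3 lower (-0.96 ± 0.20). Of 3 further BBSome genes 2 were higher, Bbip1 (0.66 ± 0.09) and Ttc8 (0.56 ± 0.13). Among 10 genes of ciliary motors 6 were higher and 0 lower, with a median of 0.40, and Kif3a and Kifap3, subunits of the kinesin that drives IFT towards the tip, had 1.08 ± 0.07 and 1.01 ± 0.05. In the PV IP 0 of these 10 passed by edgeR. Of 15 transition zone genes 2 were higher and 1 lower in the CaMK2a IP, with a median of -0.05, and Rpgr had 1.51 ± 0.17.

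For the next lists too, 32.6% of all genes were higher and 31.6% lower in the CaMK2a IP after PBS. Of 20 genes of centriole duplication and the pericentriolar material 9 were higher and 4 lower there, with a median of 0.34. Akap9, a scaffold of the centrosome and Golgi, had 2.04 ± 0.10 in the CaMK2a IP and 3.30 ± 0.45 in the PV IP, and Pcm1, the satellite scaffold, 1.73 ± 0.08 and 1.62 ± 0.26. Crocc, which encodes the rootlet protein, was lower in the CaMK2a IP (-0.77 ± 0.29) and higher in the PV IP (2.11 ± 0.39). Of 5 further genes of distal appendages and the basal body 2 were higher and 1 lower in the CaMK2a IP, and Ttbk2, the kinase that starts ciliogenesis, had 0.69 ± 0.06 there and 1.07 ± 0.19 in the PV IP. Of 18 genes of ciliary membrane and signalling proteins 4 were higher and 8 lower in the CaMK2a IP, with a median of -0.21. Gpr161 had 1.30 ± 0.08 in the CaMK2a IP and -0.78 ± 0.19 in the PV IP, and Gli2 and Smo, of the Hedgehog pathway, had -2.89 ± 0.32 and -2.16 ± 0.23 in the CaMK2a IP. Of 16 regulators of ciliogenesis 4 were higher and 5 lower there, Rfx7 with 1.03 ± 0.08 and Rfx4, an RFX factor, with -2.43 ± 0.22.

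After KA the ciliary motor genes of the CaMK2a line were lower in 5 of 10 in the IP and 6 of 10 in the input, and 0 were higher by edgeR in either, where 15.3% of all genes were lower in the IP and 15.7% in the input. Of the 3 further BBSome genes Ttc8 was lower, with -0.87 ± 0.15 in the IP and -0.71 ± 0.19 in the input. Kif3a had -0.11 ± 0.09 in the IP, not past the threshold, and -0.36 ± 0.12 in the input.

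Per kilobase of gene model, the 44 genes had a median level of 4.55 CPM over the 8 groups, and all genes 5.79. Ift20 had the highest level per kilobase, at 110.5 CPM, followed by Cep170b at 38.2 and Cep19 at 30.6. Cep83 stood at 10.7 and Cep290 at 3.30 CPM per kilobase. Cep55, which acts in the last step of cell division, and Cep72, a satellite protein, were below the filter on low counts in each 2-group comparison. Cep72 was tested in the differences between lines alone, with -1.10 ± 1.37 after PBS and -2.24 ± 1.51 after KA (adjusted p = 0.620 and 0.298). Cep55 had 0 to 13 counts per library and Cep72 0 to 13, with means over groups of 0.16 and 0.44 CPM, and no difference was detectable in them at this depth.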

How the data were processed

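RNA of hippocampal CA1 was sequenced as 75 base single-end reads from SPIA-amplified cDNA, per the labels' protocols. The deposited values are whole read counts per gene, which the authors made with BWA on mm10 (GRCm38), per the submitters' processing notes, where edgeR is named as well. Versions and strand are not given in the sources used here. The 6 tables hold 13384 to 14033 genes, and 189281 counts present in more than 1 table were identical. Totals of 6.06 to 15.8 M counts per library set the precision, and levels of a few counts cover counting error only.

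Tests used edgeR 4.0.16 (quasi-likelihood, TMM, filterByExpr with a minimum count of 10, Benjamini-Hochberg adjusted p under 0.05) in R 4.3.3. Each took the genes with a count in every library used, from only the groups compared, or all 28 libraries for differences between lines. Counts for IP against input after PBS were joined from the deposited comparisons of KA with PBS. SEs were derived from each fold change and its F statistic. Libraries are pools of mice, so p-values for KA against PBS measure the spread between pools. The main fits of IP against input, and of differences, treated IP and input of 1 pool as independent, and the replicate block did not. The main 2-group fit was run on simulated counts for IP against input after PBS in each line. Few genes were changed there, equally up and down, while 64.2% of all genes passed in the CaMK2a data. The simulation therefore cannot show how the fit behaves under so broad a difference. The fits of differences and the alternatives were not run on simulated counts. Alternatives were other scaling factors, no filter, DESeq2 1.42.0, a replicate block, corrections for length or GC, PV replicates 1 to 3, and leaving out each library. The corrections used R's loess (span 0.3) as an offset in edgeR, and that for GC was added after the data were seen. IP and input of 1 number share a lysate pool, per the series' design text. Same-numbered IP and input correlated by -0.009, 0.049 and 0.126 in the CaMK2a line after PBS, where IP replicates 1 and 2 best matched other numbers. After KA these were 0.206 to 0.362. In the PV line they were 0.165 to 0.674 after PBS, where IP replicate 2 best matched input replicate 3, and 0.187 to 0.602 after KA. For KA against PBS every same-numbered pair correlated above 0.1 in the CaMK2a input (0.107 to 0.315) and the PV input (0.289 to 0.809), and not in the IPs. KA input replicate 2 of the CaMK2a line and KA input replicates 2 and 3 of the PV line matched PBS input replicate 1 better.

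The members and lists were chosen with earlier results of these data known. Named genes are Cep290, Cep83 and Ift27, the 5 highest and 5 lowest called genes without overlap and with mean log2 CPM of at least 1 in each comparison of IP with input, the 4 highest and lowest for KA, the 3 for differences and the 2 highest and lowest of each pathway list. Other names were chosen after their values were seen. Aqp4, Mog, Mobp, Cfap126 and Cdk1 were not analysed here. The values of 1 member are not reported here, though it is included in the counts and medians.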

Additional observations from a re-analysis of the deposited data

Results flagged for a closer look

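In the PV line, where groups hold 4 libraries, 5 of 100 sets of 1 gene in 1 group (25 named genes) had a library far from the other 3, a rate of 1 in 20 that chance alone gives. In the PV IP after KA, Cep131 was at 2.401 CPM in replicate 3, with the others at 7.99 to 9.07, and Cep68 was at 28.87 CPM in replicate 1, with the others at 40.6 to 41.7. Cep19 reached 90.82 CPM in replicate 3 of that group, with the others at 50.8 to 57.2, and Cep350 stood at 80.76 CPM in replicate 4, with the others at 193 to 209. In the PV input after PBS, Cep19 was at 48.86 CPM in replicate 4, with the others at 67.2 to 68.0.

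The log2 ratio of IP to input differed between the lines by a test of the difference itself (PV minus CaMK2a, edgeR). After PBS the values were 4.005 for Ift27, 0.7313 for Cep170b, -1.728 for Ift57, -1.404 for Ift74 and -1.396 for Ift81. After KA they were 4.677 for Ift27, 1.037 for Cep170b, -1.453 for Bbs5, -1.439 for Ift81 and -1.437 for Ift57.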

How the results depend on the processing

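Of 57 called values of named genes 41 kept their call in every alternative run. Over 888 gene values under alternatives 814 kept their side of the threshold, 69 lost a call, 5 gained one and 0 reversed. In the PV IP after PBS 2 genes in place of 1 were lower with upper-quartile factors, DESeq2, the replicate block, length correction with the block, and GC correction with or without the block. After KA, in place of 0, 1 was lower with upper-quartile factors, DESeq2, length or GC correction, and 2 with the replicate block alone or with either correction. For KA against PBS, upper-quartile factors gave 3 higher and 13 lower in the CaMK2a IP (6 and 8 otherwise). In the PV IP (0 and 1) DESeq2 gave 1 and 3, the replicate block 1 and 2, and replicates 1 to 3 alone 2 lower. In the PV input (1 and 2) DESeq2 gave 2 and 5, the block 3 and 9, and replicates 1 to 3 alone 3 and 6. In either direction DESeq2 called 9.52% of the 42 in the PV IP and 16.7% in the PV input, against 7.84% and 16.2% of all genes. With the block 7.14% of the 42 passed in the PV IP, against 8.09% of all genes. The cause of these shifts was not tested. The block gave 4 higher and 8 lower in the CaMK2a IP, where numbers did not pair the libraries, and moved no other count by over 1.5 times.

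Leaving out 1 library at a time, the CaMK2a IP against input had 22 to 26 higher and 2 to 4 lower after PBS, and 16 to 22 and 1 to 2 after KA. The PV IP had 7 to 9 higher and 0 to 1 lower after PBS, and 5 to 7 and 0 to 1 after KA. The share of all genes passing in either direction moved in the same runs. In the CaMK2a line it was 58.3% to 62.8% after PBS (64.2% in the main fit) and 40.1% to 49.9% after KA (50.1%). In the PV line it was 12.5% to 20.2% (18.5%) and 6.29% to 12% (11%). For KA against PBS the CaMK2a IP had 3 to 6 higher and 5 to 10 lower, the CaMK2a input 3 to 6 and 5 to 15, the PV IP 0 to 1 and 0 to 1, and the PV input 0 to 2 and 0 to 3. In that order, 22.8% to 38.8%, 25.3% to 37.7%, 3.23% to 6.65% and 7.75% to 15.7% of all genes passed in either direction. The main fits had 35.1%, 35%, 4.85% and 11.6%. Cep55 was too low to be tested, and Cep72 was tested in the differences between lines alone, where none was detectable at this depth.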
